A study of Homo sapiens with 4 samples.

Results

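Long noncoding RNAs carry no annotated protein, and most are spliced and polyadenylated like messenger RNAs. Antisense genes, whose symbols end in -AS and a number, are named after the gene that they overlap or adjoin on the other strand. LINC symbols stand for intergenic noncoding genes, and the ending -IT marks a transcript from an intron of the named gene. Many are spliced less efficiently than messenger RNAs, and some are hosts of small nucleolar RNAs, which are cut from their introns. The genes described here are those of a table of skipped exons whose symbol starts with LINC or ends in -AS or -IT and a digit, except EPB41L4A-AS1. A skipped exon event is a set of 3 exons of which the middle one is included or left out, counted from reads that span the splice junctions. The naming rule found 652 events in 158 genes, of 65601 events in all. Of these, 250 events were kept, those with 20 or more junction reads in the mean library. They covered 182 exons in 84 genes, 23 with a LINC symbol, 60 with an -AS and 1 with an -IT ending. The last event kept had a mean of 20 reads and the first left out 19.75. In GENCODE release 29, 20 of the genes carry another symbol and 4 are listed as protein coding: LINC00085 (SPACA6), LINC00094 (BRD3OS), LINC00176 (C20orf204) and RPA3-AS1 (UMAD1).

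The cells were HEK293T, an established human embryonic kidney line. Per the labels, 2 libraries came from cells transfected with a gapmer antisense oligonucleotide (ASO) against the small nucleolar RNA SNORD89 at 70 nM and 2 from cells without ASO. All 4 sample labels give a medium change at 24 h and RNA at 48 h, and no control ASO is named. The protocol text is the same for both groups, so whether the cells without ASO met the lipid reagent is unclear. The line was not checked against marker genes, since the table holds skipped exons only. SNORD89 itself is not measured by exon skipping, and nothing in the labels says that the libraries of a group came from separate cultures, so p-values measure only the spread between these libraries. No header says which set of 2 libraries in the table had the ASO, so every direction below is the first set against the second.

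Junction reads on the 250 events came to 52585 and 57922 in the 2 libraries of the first set, and to 70002 and 63345 in those of the second. C17orf76-AS1 and HNRNPU-AS1 alone held 74.2% of them, on 19 events. These are sums over events, so a read on a junction shared by several events counts in each. The median event had 49.5, 46.0, 46.5 and 47.5 reads in the 4 libraries, and the median of the event means was 47.875, against 190 for all 54503 tested events. Library 2 of the second set stood apart. It had no read on 3 of the 250 events, all of LINC00630, where the other libraries had reads on all. Over all tested events it had no read on 129, against 0 and 0 in the first set and 19 in library 1 of the second. Among events of these genes with partial inclusion and at least 20 reads in the library, its level was exactly 0 or 1 in 22.5%, against 9.7%, 11.3% and 9.3% in the other libraries. Over all tested events the same shares were 17.7% against 6.61%, 7.45% and 7.73%.

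Partial inclusion of the exon was found in a larger share of the events of these genes than of all tested events. The inclusion level compares reads that include the exon with reads of 1 skipping junction, corrected for the lengths of the 2 forms. It is a share within the event, not of all transcripts of the gene, and 1 exon can differ between its events. The mean inclusion level lay between 0.05 and 0.95 in 146 of 250 events (58.4%) and in 24.5% of all tested events. It was above 0.95 in 34.4% against 66.1%, and its median was 0.868 against 0.983. Of the 84 genes, 62 had at least 1 such partly included event. In single libraries, over events with at least 20 reads there, the share was 61.2% and 54.9% in the first set, against 56.8% and 42.4% in the second, the lowest again in library 2 of the second set. In all tested events it was 25.3%, 24.9%, 24.1% and 21.2%.

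Read depth moved with this share, so the events were set beside tested events of like depth. All tested events were split into 4 equal depth classes. In the shallowest class, up to a mean of 75.75 reads, 63.7% of 182 events of these genes and 45.8% of all were partly included. In the second class, up to 190.0 reads, the shares were 53.7% of 41 events and 27.0%. In the third they were 40.0% of 10 events and 16.5%, and in the deepest, above 500.6 reads, 23.5% of 17 events and 8.59%. The share was higher than in all tested events within every class, although the deeper ones hold few events. All 4 partly included events of the deepest class were of 1 gene, C17orf76-AS1, and 3 of them share their skipping reads. The 4 of the third class were of MAPKAPK5-AS1, NUTM2A-AS1 and TP73-AS1. Events of 1 gene are not independent, so the higher share in these 2 classes rests on few genes. Long noncoding genes of GENCODE release 29 outside the naming rule had 494 tested events, of which 45.3% were partly included at a median depth of 79.625 reads. Events of protein-coding genes numbered 52867, and 23.9% of them were partly included at a median of 194.75 reads.

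**Figure D1:**
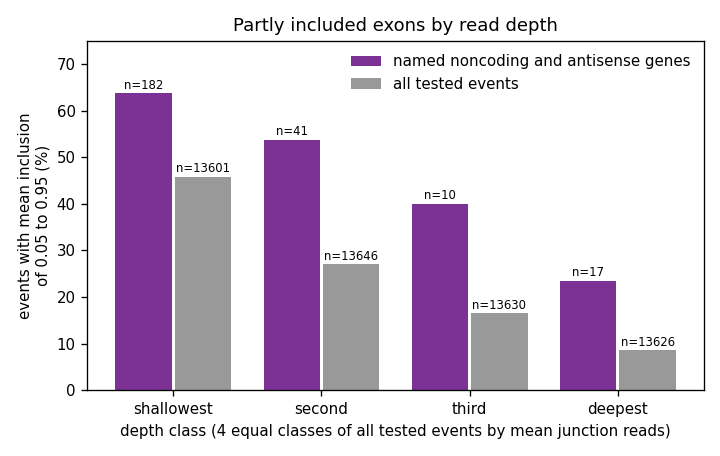
Percentage of events with a mean inclusion level of 0.05 to 0.95 in each of 4 equal classes of the tested events by mean junction reads. Purple bars are the named noncoding and antisense genes, gray bars all tested events, and n is the number of events; the purple bar is the higher one in every class, from 63.7% against 45.8% to 23.5% against 8.59%.

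The exons were then set beside all tested exons by sequence and length. Sequences were found for 172 of the 182 exons by matching gene identifier and exon spacing to GENCODE release 29. A stop triplet (TAA, TAG or TGA) occurred in all 3 reading frames in 77 of these (44.8%), against 11.7% of all tested exons. Length was divisible by 3 in 59 of 182 exons (32.4%), against 40.3%. Median length was 122 nt against 118 nt, and the median intron before the exon was 3732 nt against 1974 nt. The last bases were AG, the usual exon side of a donor site, in 61.6% against 55.3%, and median GC content was 49.3% against 50.6%.

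Part of the exons carried sequence that recurs across the transcriptome. In 24 of the 172 exons, in 18 genes, at least 50 nt at 80% identity or more occurred in transcripts of at least 100 other genes. Their 34 events had a median inclusion level of 0.583, against 0.893 for the 204 events of the other exons, at median depths of 38.125 and 50.875 reads. Partial inclusion was found in 73.5% of the former and 57.4% of the latter. Of the called exons, 3 were among the 24, those of OSER1-AS1, NUTM2A-AS1 and PCBP1-AS1 (197 nt). At least 95% identity over 80% of the exon, on the same strand, was found in another gene for 23 of the 172 exons. Position was not checked, so the 23 include overlapping genes of the same locus as well as copies elsewhere. Examples are LINC02210-CRHR1 for CRHR1-IT1 (LINC02210 in release 29) and SEC31A, which shares junctions with THAP9-AS1.

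Skipping that differed between the sets was called at a false discovery rate (FDR) under 0.05 in the authors' deposited table with a difference in inclusion of at least 0.1. This held for 20 of the 250 events (8.0%), in 19 exons of 17 genes, against 2.71% of all tested events. Inclusion was higher in the first set in 11 of the 20 (background 1.34%) and lower in 9 (background 1.37%). All 20 were partly included events in the shallowest depth class, with means of 20.75 to 66.25 reads. Among partly included events of that class, the share called was 17.2% for these genes and 17.1% for all tested events, so the called share was near the background of like events. No event was called among the 68 deeper ones of these genes, 30 of them partly included, where 1.01% of all tested and 5.79% of all partly included events were called, so none called is near the background too. The levels of the sets did not overlap in 17 of the 20, against 79.1% of all 1477 called events. In 13 of the 20, both libraries of one set held reads of only 1 form, a share not given here for all called events. The median absolute difference was 0.262 in the authors' deposited table, against 0.165 for all called events. These medians are not matched for depth, since 412 of all called events were deeper than the shallowest class.

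A quasi-binomial model that takes the scatter between libraries as its error called none of the 250 events after Benjamini-Hochberg adjustment, and 0.0202% of all tested events (11 of 54503). Its smallest adjusted p among the 250 was 0.399. On simulated data with the measured scatter it found 77 of 200 events changed by 0.3, so the lack of a call does not show that an event is unchanged. Those 200 were drawn from all tested events of middle inclusion level, so the share found may differ for these genes. Median depth was 190 reads for all tested events and 47.875 for the 250. At an unadjusted p under 0.05 the model held 21 of the 250 (8.4%), 13 of them among the 20 called events, against 6.11% of all tested events. A limma fit of log2 inclusion over skipping reads called 0 events in the whole table, and limma with precision weights called 2 of the 250 (0.235% of all tested), both of HNRNPU-AS1. An exact permutation test of 2 libraries against 2 cannot go below 0.33. The differences below are thus calls of the authors' test alone.

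**Figure D2:**
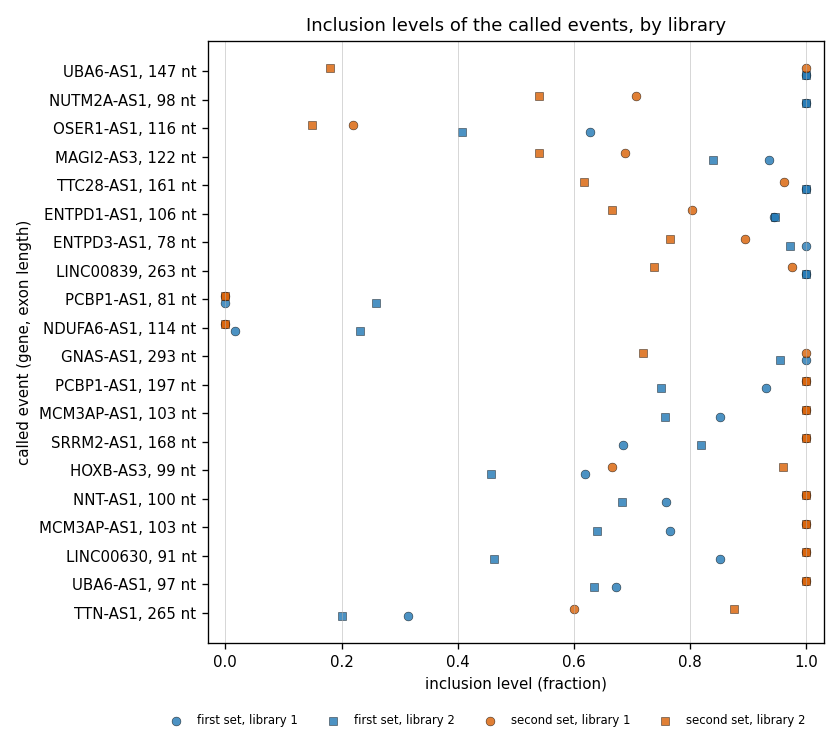
Inclusion level (fraction, x axis) of the 20 called events in each library, 1 row per event, ordered by the difference between sets. Blue symbols are the first set and orange the second, circles library 1 and squares library 2; in the lower rows the second set sits mostly at 1.0, and in UBA6-AS1 (147 nt) only library 2 of the second set, at 0.18, lies away from 1.0.

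In 7 of the 9 events called lower in the first set, every read of the second set supported inclusion, while the first set held both forms. How often this held over all called events is not given here. UBA6-AS1 (ENSG00000248049.2), beside UBA6, which encodes an enzyme that activates ubiquitin, showed such reads in its 97-nt exon. Coordinates here are in hg19, the build named in the submitters' processing notes. The first set stood at 0.673 (95% Wilson interval from 0.441 to 0.843) and 0.634 (from 0.429 to 0.8), the second at 1.0 (from 0.784) and 1.0 (from 0.634). These intervals cover counting error only. The difference in the authors' deposited table was -0.347, with an FDR of 0.00028. The quasi-binomial p was 0.0251 before adjustment. All 23 and 11 reads of the second set were inclusion reads, against 17 of 22 and 20 of 27 in the first.

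The next exon upstream in UBA6-AS1, of 147 nt, was called in the other direction. Its level was 1.0 in both libraries of the first set and in library 1 of the second, and 0.18 (0.0851 to 0.343) in library 2 of the second, from 15, 24, 23 and 23 reads. In the authors' deposited table the difference was 0.41 at an FDR of 0.0253, but without library 2 of the second set the difference was 0.0. The sets overlapped. The exons are numbers 3 (147 nt, chr4:68594258-68594404) and 4 (97 nt, chr4:68595792-68595888) of 8 in the matched transcript, on the plus strand, and the event of exon 4 has exon 3 as its upstream exon. The calls are not independent, since both events have the same downstream exon. A read that joins exon 3 to that exon counts as skipping of exon 4 but as inclusion of exon 3. Such reads numbered 5 and 7 for the first set, against 0 and 0 for the second. Skipping reads of exon 3 were 0, 0, 0 and 16. Both exons are printed 5′ to 3′, the last 3 bases before the donor site in capitals, as neighbors called in opposite directions.
UBA6-AS1, exon 3: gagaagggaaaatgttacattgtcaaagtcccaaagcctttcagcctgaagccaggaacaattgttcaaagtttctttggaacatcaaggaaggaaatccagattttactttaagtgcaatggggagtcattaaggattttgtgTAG
UBA6-AS1, exon 4: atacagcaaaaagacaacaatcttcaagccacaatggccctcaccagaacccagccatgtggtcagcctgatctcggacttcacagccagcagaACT
Exon 3 ends in TAG and exon 4 in ACT, so the latter lacks the AG that ends 61.6% of the exons of these genes.

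MCM3AP-AS1 (ENSG00000215424.5) is named after MCM3AP, which encodes a factor of messenger RNA export. Both of its events concern 1 exon of 103 nt (chr21:47656138-47656240) and share inclusion reads. In the deeper event its level was 0.851 and 0.756 in the first set, against 1.0 in both libraries of the second. In the other event it was 0.765 and 0.639 against 1.0 and 1.0. The second set had 7 and 51 reads on the deeper event and 5 and 40 on the other, all of inclusion, so its library 1 gave little depth. FDR values in the authors' deposited table were 0.00537 and 0.000562.

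NNT-AS1 (100 nt, chr5:43583569-43583668) had levels of 0.759 and 0.683 in the first set, against 1.0 in both libraries of the second, from 50, 23, 6 and 25 reads. NNT encodes a mitochondrial enzyme that makes NADPH. SRRM2-AS1 (168 nt, chr16:2793553-2793720), named after the nuclear speckle protein SRRM2, was at 0.684 and 0.818 against 1.0 and 1.0, from 16, 20, 62 and 13 reads. LINC00630 (91 nt, chrX:102071920-102072010) was at 0.852 and 0.463 against 1.0 and 1.0, from 41, 43, 12 and 6 reads. Its 2 libraries of the first set differed from each other by more than the higher one did from the second set. Without library 2 of the first set the LINC00630 difference was -0.148, and without library 1 it was -0.537, against -0.343 in the authors' deposited table.

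TTN-AS1 (ENSG00000237298.4), antisense to the titin gene of muscle, had the largest difference. The level of its 265-nt exon (chr2:179396041-179396305) was, for the first set, 0.315 (0.208 to 0.446) and 0.2 (0.0886 to 0.391), and for the second 0.6 (0.257 to 0.867) and 0.875 (0.541 to 0.977). The second set rested on 8 and 15 reads, and the intervals of its library 1 overlapped those of the first set. In the authors' deposited table the difference was -0.48 and the FDR 0.0147.

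In 9 of the 11 events called higher in the first set, the lowest level was that of library 2 of the second set. Where the sets do not overlap, the lowest level of such a call is in the second set by definition. The like count over all called events is not given here, so nothing particular to these genes is read from it. OSER1-AS1 (ENSG00000223891.1, 116 nt, now OSER1-DT), beside the oxidative stress response gene OSER1, was at 0.628 and 0.407 in the first set, against 0.219 and 0.149 in the second, from 28, 20, 15 and 21 reads. All 4 levels were partial, and the sets did not overlap. MAGI2-AS3 (122 nt, chr7:79084202-79084323), named after a scaffold protein of cell junctions, was at 0.935 and 0.839 against 0.687 and 0.539, from 54, 84, 50 and 50 reads. A further event joins the same exon to another upstream exon, and there the levels were 0.955 and 0.955 against 1.0 and 1.0, with a difference of -0.045 in the authors' deposited table. ENTPD1-AS1 (106 nt, chr10:97664587-97664692), named after an enzyme that breaks down extracellular ATP, was at 0.944 and 0.946 against 0.804 and 0.665. Its other event on that exon was at 0.745 and 0.933 against 0.925 and 1.0, and was not called (in the authors' deposited table its FDR was 0.122). A 109-nt form of the exon, with the flanking exons and skipping reads of the called event, was deeper, with a mean of 77 reads against 28.75. The longer form was at 0.985 and 0.975 against 0.893 and 0.874. Its difference of 0.097 in the authors' deposited table was under the 0.1 asked of a call.

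TTC28-AS1 (161 nt, chr22:28318006-28318166) had a level of 1.0 in both libraries of the first set, 0.962 in library 1 of the second and 0.617 in library 2, from 80, 47, 51 and 76 reads. Its difference of 0.211 in the authors' deposited table became 0.0385 without library 2 of the second set. The other event on that exon had 0.714 and 0.846 against 0.721 and 0.952. The remaining called events, which complete the 20, had smaller differences, and all but those of PCBP1-AS1 were named after their values were seen. ENTPD3-AS1 (78 nt) was at 1.0 and 0.971 against 0.895 and 0.766, LINC00839 (263 nt) at 1.0 and 1.0 against 0.976 and 0.737, and GNAS-AS1 (293 nt) at 1.0 and 0.955 against 1.0 and 0.718. Without library 2 of the second set their differences were 0.0904, 0.0235 and -0.0227, the last with its sign turned. NDUFA6-AS1 (114 nt) was at 0.0164 and 0.232 against 0.0 and 0.0, and without library 2 of the first set its difference was 0.0164.

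Of the 20 calls, 12 kept their sign and a difference of 0.1 or more without each library in turn. No such share is given here for all called events. Leaving out library 2 of the second set kept 15 and library 2 of the first set 17. Leaving out library 1 of the first set kept 19, and library 1 of the second set all 20.

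Several events often share 1 exon, and the call then usually fell on 1 of them. Of the 19 called exons, 7 also had tested events that were not called, 13 in all. MCM3AP-AS1 was the exception, with both events of its exon called. HOXB-AS3 (ENSG00000233101.6) lies in the HOXB cluster, whose genes set position along the body axis. Its 99-nt exon (chr17:46677809-46677907, plus strand) had 4 events that differ in the downstream exon and share 1 upstream exon. The sequence is printed with its last 3 bases in capitals.
HOXB-AS3, 99 nt: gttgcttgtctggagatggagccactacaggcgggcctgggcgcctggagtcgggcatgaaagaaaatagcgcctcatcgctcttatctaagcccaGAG
The called event had, for the first set, levels of 0.619 (0.444 to 0.768) and 0.457 (0.323 to 0.597), and for the second 0.665 (0.547 to 0.765) and 0.959 (0.864 to 0.989). Skipping reads numbered 10, 20, 20 and 2. The gap between the sets was narrow in library 1 of the second set and wide in library 2, and the authors' deposited table has a difference of -0.274 with an FDR of 0.0499. Without library 1 of the second set the difference was -0.421, and without library 2 it was -0.127. In the other 3 events of the exon, levels were at least 0.881 in every library, and differences in the authors' deposited table were 0.026, -0.037 and 0.048.

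The 98-nt exon of NUTM2A-AS1 (ENSG00000223482.3) also had 4 events, which differ in the downstream exon. This exon has a near-identical copy in NUTM2B-AS1, so the counting could have split its reads. In the called one, both libraries of the first set were at 1.0 (intervals from 0.825 and 0.809), and those of the second at 0.707 (0.519 to 0.844) and 0.539 (0.392 to 0.679). The authors' deposited table has its smallest FDR for these genes there, 6.09e-06. In an event whose downstream exon starts 23 nt further on, levels were 0.884 and 0.738 against 0.594 and 0.954, and the sets overlapped. Skipping reads were 0, 0, 7 and 16 in the former and 3, 6, 14 and 1 in the latter. Differences of the 3 uncalled events were 0.038, 0.037 and -0.001 in the authors' deposited table.

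**Figure D3:**
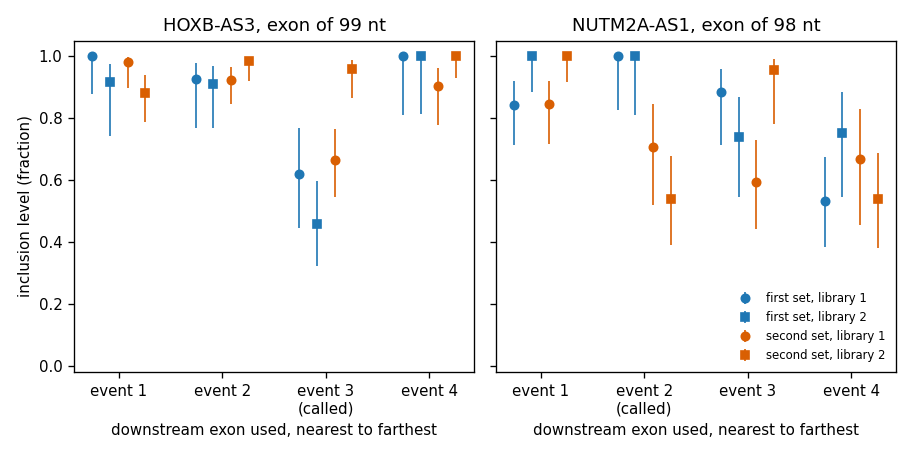
Inclusion level (fraction, y axis) of 1 exon of HOXB-AS3 and 1 of NUTM2A-AS1 in the 4 events that each takes part in, with 95% Wilson intervals; events are ordered by the distance of the downstream exon. Blue is the first set and orange the second; the sets are apart only in the called event of each exon, event 3 of HOXB-AS3 and event 2 of NUTM2A-AS1.

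PCBP1-AS1 (ENSG00000179818.9), named after the RNA-binding protein PCBP1, had the most events, 22 on 10 exons, of which 17 were partly included. The 197-nt exon was in 4 of them. In the event called lower in the first set, its level was 0.931 and 0.75 against 1.0 and 1.0, from 28, 28, 24 and 6 reads. In the other 3 events the first set was the higher one: 0.469 and 0.412 against 0.271 and 0.25, 0.132 and 0.152 against 0.0909 and 0.0, and 0.0667 and 0.2 against 0.0538 and 0.0. None of these 3 was called, with FDR values of 0.169, 0.0824 and 0.248 in the authors' deposited table. The called difference of -0.159 fell short of the threshold, at -0.069, without library 2 of the first set. The 81-nt exon was at 0.0, 0.259, 0.0 and 0.0, so the second call of this gene rested on library 2 of the first set alone, without which the difference was 0.0. Its deepest event, on the 181-nt exon, had 0.497 and 0.747 in the first set, against 0.5 and 0.663 in the second from 125, 83, 132 and 84 reads, and differed more within each set than between them.

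The 12 deepest partly included exons are described as levels. None had a called event, where 5.79% of all partly included events above the shallowest depth class did, and nothing is read from that count. C17orf76-AS1 (ENSG00000175061.13, LRRC75A-AS1 in GENCODE release 29) hosts small nucleolar RNAs in its introns, and its deepest event had a mean of 5198.5 reads per library. The exons of 176, 123 and 44 nt share their end at position 16343017 of chromosome 17 (plus strand) and differ in their start, so they are alternative acceptor sites of 1 exon. The 176-nt form (chr17:16342842-16343017) is printed with the 44-nt form in capitals.
C17orf76-AS1, 176 nt: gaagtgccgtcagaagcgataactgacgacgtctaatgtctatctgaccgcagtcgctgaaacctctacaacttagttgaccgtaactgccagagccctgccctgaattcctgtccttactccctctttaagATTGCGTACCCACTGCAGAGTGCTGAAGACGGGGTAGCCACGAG
In this sequence the 2 bases before the start of both shorter forms are ag, the bases that end an intron at an acceptor site.
Inclusion of the 176-nt form was 0.286 and 0.254 in the first set, against 0.231 and 0.29 in the second. The 123-nt form had 0.206 and 0.182 against 0.165 and 0.181, and the 44-nt form 0.129 and 0.124 against 0.118 and 0.119. These 3 events share their skipping reads, which were 2277, 2859, 3841 and 3161, and each level is taken against skipping alone. The order of the forms was the same in every library. In the authors' deposited table the differences were 0.01, 0.021 and 0.008, with FDR values of 1.0, 0.783 and 1.0. A 57-nt exon further on was at 0.85, 0.842, 0.828 and 0.843 in its deepest event. The mean levels of its other events were 0.995, 0.995 and 0.998.

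MAPKAPK5-AS1, named after a stress-activated kinase, had 2 exons of 145 and 144 nt with partial inclusion. The first was at 0.723 and 0.692 against 0.651 and 0.649, and the second at 0.591 and 0.565 against 0.625 and 0.619. The sets did not overlap in either, but the differences, 0.057 and -0.044 in the authors' deposited table, had FDR values of 0.78 and 1.0. PXN-AS1, antisense to the focal adhesion gene PXN, included a 177-nt exon at 0.0976 and 0.0864 against 0.146 and 0.167. The authors' deposited table has an FDR of 0.0682 there. NUTM2A-AS1 had 0.149 and 0.167 against 0.222 and 0.101 for a 104-nt exon, and ASB16-AS1 0.571 and 0.444 against 0.597 and 0.568 for one of 164 nt. For both, the libraries of at least 1 set lay further apart than the set means. TP73-AS1, named after the p53 relative p73, had a 130-nt exon at 0.931, 0.991, 0.96 and 0.849 and an 88-nt exon at 0.0501, 0.0965, 0.0691 and 0.018. The lowest level of each was in library 2 of the second set.

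**Figure D4:**
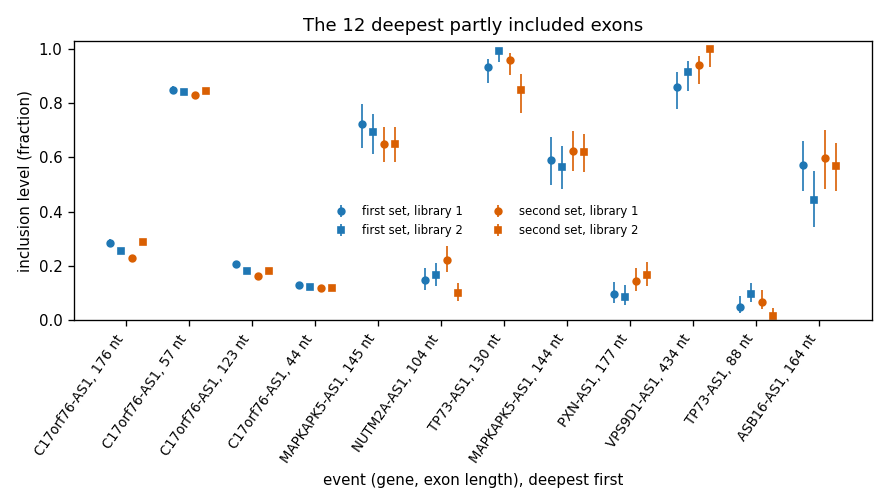
Inclusion level (fraction, y axis) with 95% Wilson intervals in each library for the 12 partly included exons with most junction reads, deepest first. Blue is the first set and orange the second; the C17orf76-AS1 forms stand at similar heights in all 4 libraries, from 0.118 to 0.29 for the alternative acceptors and 0.828 to 0.85 for the 57-nt exon.

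Several of the deepest genes had nearly constant exons. HNRNPU-AS1 (ENSG00000188206.5) included a 186-nt exon at 0.971, 0.982, 0.987 and 0.991 from 4381, 4682, 5973 and 5140 reads, and in the authors' deposited table the difference was -0.013 at an FDR of 0.00253. This is under the 0.1 asked of a call. Both events of that exon share a junction with HNRNPU, an RNA-binding protein gene on the same strand, so their reads cannot be given to one gene. VPS9D1-AS1 had a 130-nt exon at 0.988, 0.982, 0.968 and 1.0 in an event of 1218, 1030, 1091 and 1125 reads. Its 434-nt exon was at 0.859 and 0.915 against 0.941 and 1.0, and in the authors' deposited table the difference was -0.083 at an FDR of 0.0432. TRIM52-AS1 (162 nt) was at 0.983 or above in every library. ZSCAN16-AS1 (197 nt) was almost never included, at 0.00662, 0.00568, 0.00634 and 0.0. OIP5-AS1, a noncoding RNA known for a binding site of miR-7, kept a 112-nt exon at 0.0215, 0.0396, 0.0468 and 0.00473 from 135, 104, 101 and 121 reads. LINC00665 had an exon of 96 nt at 0.281 and 0.336 against 0.249 and 0.0735, and a longer form of it (255 nt) at 0.222 and 0.182 against 0.102 and 0.0213. Neither was called, and in both the lowest level was that of library 2 of the second set. Without it the LINC00665 difference of the 96-nt form was 0.0596, against 0.147 in the authors' deposited table. That of the 255-nt form was 0.1 without it, against 0.141.

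Junction reads of each gene's deepest event gave a measure of its spliced RNA. After scaling by the median ratio over genes, limma with trend called 8 of the 84 genes at an adjusted p under 0.05 (9.52%), against 33.0% of all 9999 genes. Of the 8, 6 were lower in the first set (background 15.9%) and 2 higher (background 17.1%). The median log2 difference of the 84 was -0.02, against 0.01 for all genes. The median depth of the event used was 57.0 reads for the 84 genes and 267 for all, and the part of depth in the lower share was not tested. Scaling by total junction reads instead moves the median of all genes by 0.28 on the log2 scale. With it, 6 of the 84 genes were called and 5 of them were higher, as were 86.9% of all calls, against 51.8% with the median ratio. The calls were lost without library 1 of the first set, as were most calls over all genes, in a fit with 1 library in that set. The 8 log2 differences kept their sign there. They were -1.23 in HOXB-AS3, 2.21 in TTN-AS1, 0.545 in CRHR1-IT1 and -0.381 in C17orf76-AS1. In HNRNPU-AS1, MAPKAPK5-AS1, PXN-AS1 and TRIM52-AS1 they were -0.318, -0.463, -0.576 and -0.437. Of the 8, 4 still passed when library 2 of that set was left out. With library 1 of the second set left out 3 did, and with its library 2 left out 4.

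HOXB-AS3 had 43 and 53 reads in the first set, against 128 and 110 in the second. The groups did not overlap, and the log2 difference of scaled reads was -1.42 ± 0.375 (SE), with a limma adjusted p of 0.00514. HOXB-AS3 was the only one of the 8 that passed limma without each of the other 3 libraries in turn, library 1 of the first set excepted, with adjusted p-values of 0.0155, 0.0236 and 0.00207. TTN-AS1 was the other way, with 40 and 43 reads against 14 and 5, a log2 difference of 2.12 ± 0.785 (SE) and a limma adjusted p of 0.0378. Without library 2 of the second set the TTN-AS1 difference was 1.36 and did not pass limma (adjusted p of 0.0794), nor did it without library 2 of the first set (0.268). Summed over all events of the gene it was 1.30 and passed. These reads are on another event of the gene than the exon of 265 nt described above. CRHR1-IT1, from the locus of a receptor for corticotropin-releasing hormone, had 272 and 233 reads against 149 and 154, a log2 difference of 0.62 and a limma adjusted p of 0.0466. The CRHR1-IT1 call was lost without any 1 library (limma adjusted p from 0.059 to 0.401), with no minimum of reads (0.0597) and with the sum over all events, where the difference was 0.43 (0.146).

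The other 5 genes called by limma had smaller log2 differences, from -0.40 to -0.68, and were among the deepest. C17orf76-AS1 had 4100 and 4805 reads against 6146 and 5743, a log2 difference of -0.53 with a limma adjusted p of 0.00704. HNRNPU-AS1, whose reads are shared with HNRNPU, had a log2 difference of -0.40, which was -0.24 without library 1 of the second set and did not pass limma (adjusted p of 0.36). MAPKAPK5-AS1 had 166 and 212 reads against 276 and 279, PXN-AS1 186 and 190 against 232 and 312, and TRIM52-AS1 368 and 379 against 470 and 505. With scaling by total junction reads all 5 stayed lower in the first set but none passed the test, with log2 differences of -0.26, -0.13, -0.40, -0.36 and -0.22 in the order C17orf76-AS1, HNRNPU-AS1, MAPKAPK5-AS1, PXN-AS1 and TRIM52-AS1. OIP5-AS1, at 135, 104, 101 and 121 reads, and PCBP1-AS1, at 125, 83, 132 and 84, had log2 differences of -0.01 ± 0.305 (SE) and -0.16 ± 0.338 (SE), and neither passed.

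**Figure D5:**
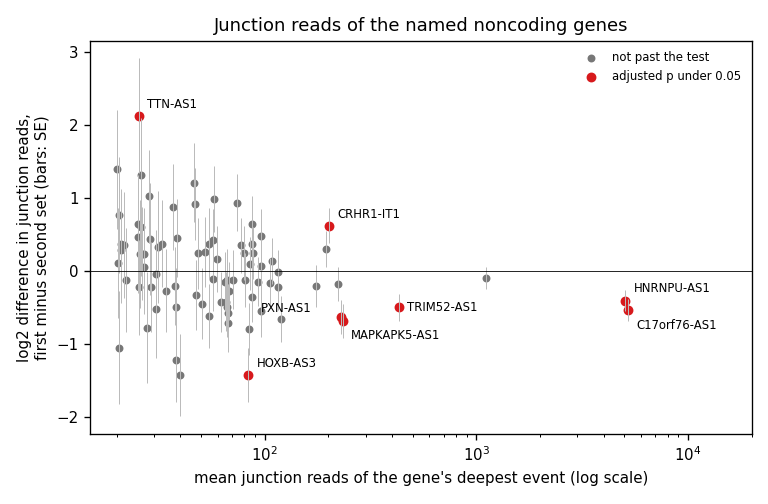
Log2 difference in scaled junction reads between the sets (y axis, first minus second, bars are standard errors) against the mean junction reads of the event used (x axis, log scale), 1 point per gene. Red points passed limma at an adjusted p under 0.05; HOXB-AS3 at -1.42 and TTN-AS1 at 2.12 are the extremes among them, and 76 gray points did not pass.

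The genes after which the antisense and intronic genes are named could be set beside them. Of 61 such members, 41 had the partner gene in the table and 37 had it with tested events, in 36 cases on the opposite strand and in that of HNRNPU on the same. Whether the counting used strand is not given in the sources used here. The partner's deepest event had more reads in 30 of the 37 pairs, with a median of 290.25 against 50.75 reads. Of 183 partner events 25.1% were partly included, against 52.3% of the 88 events of their antisense or intronic genes. In 4 of the partner genes 8 events were called from the authors' deposited table (4.37%, background 2.71%), and in 8 of the 37 paired noncoding genes (21.6%) at least 1 was. At least 1 event was called in 1201 of all 9982 genes with tested events (12%), which differ from these in depth and in events per gene. NNT and NNT-AS1 were the only pair with a call in both.

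Levels of junction reads are given side by side for the 11 pairs whose antisense gene had a called event or a changed level. Of these partners 5 passed limma, 3 higher in the first set and 2 lower. Over all 37 pairs 17 partners passed, 9 higher and 8 lower (backgrounds 17.1% and 15.9%). PXN-AS1 had a log2 difference of -0.63 and its partner PXN one of 0.52, with limma adjusted p-values of 0.0346 and 0.0504. MAPKAPK5-AS1 had -0.68 and MAPKAPK5 -0.41, with 0.0247 and 0.0593. In NNT-AS1 the difference was 1.31 (limma adjusted p of 0.197) and in NNT 1.0 (0.00175), and in UBA6-AS1 0.25 (0.638) and in UBA6 1.32 (0.00181). In TTC28-AS1 it was 0.10 (limma adjusted p of 0.848) and in TTC28 1.27 (0.0119). The partners that were lower were NDUFA6, at -0.67 (limma adjusted p of 0.00197) beside 0.33 (0.773) in NDUFA6-AS1, and SRRM2, at -0.46 (0.0173) beside -0.77 (0.451) in SRRM2-AS1. The partners HNRNPU, GNAS, MCM3AP and OSER1 had log2 differences of -0.16, -0.21, -0.36 and -0.24 and did not pass. The difference between partners was not tested.

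Of 19 spliced noncoding genes outside this set, listed for comparison, 9 were in the table and 7 had tested events, 34 in all, of which 61.8% were partly included. Both calls among them were in DLEU2, a microRNA host gene, on 2 forms of 1 exon. The 79-nt form was at 1.0 and 1.0 in the first set, against 0.974 and 0.729 in the second, and the 108-nt form at 1.0 and 1.0 against 0.89 and 0.254. Without library 2 of the second set the DLEU2 differences were 0.0261 and 0.11, against 0.149 and 0.428 in the authors' deposited table. In both, library 2 of the second set was the lowest.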

How the data were processed

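RNA was sequenced from HEK293T cells as poly(A) libraries with read pairs of 150 bases, per the labels. Per the submitters' processing notes, cutadapt, STAR and hg19 were used, with no versions given. The deposited table has the layout of rMATS, per the file headers. Its cells hold, for 2 libraries of each set, the counts of junction reads for inclusion and skipping and the inclusion level. The difference in inclusion level is a score made by the authors, and the p-value and FDR are the authors' own, per the file headers. The rMATS version and the annotation are not given in the sources used here.

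Inclusion levels recomputed from the reads matched the deposited values to within 0.0005. Events with a mean of at least 20 reads were tested, and calls needed an FDR under 0.05 and a difference of at least 0.1. A quasi-binomial model of the reads used a prior dispersion of 2.8 from limma's squeezeVar. That prior was estimated from the tested events of expected variance above 2, with a floor of 0.01 on the dispersion of an event. These settings were settled on simulated data, so the simulated results below may not be an independent check. Gene levels (limma 3.58.1 in R 4.3.3, trend, on log2 of scaled reads plus a pseudocount of 0.5) used each gene's deepest event. All p-values from these models were adjusted by Benjamini-Hochberg over all events or genes. Both were tested on simulated data. The quasi-binomial model found 126 of 200 events changed by 0.3 with binomial noise, and 77 of 200 with the measured scatter. Of its calls 2.33% and 2.53% were false. For gene levels, limma found 45 of 200 genes changed by 1 on the log2 scale, and 6.25% of its calls were false. Both models thus missed many changes of these sizes.

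Exons were matched to GENCODE release 29 (GRCh38) by gene identifier and exon spacing, with no conversion of coordinates: 238 of the 250 events matched. Printed sequences are those of the matched transcripts, some exon sequences are not reported here, and positions are those of the table with 1-based starts. Of the 84 genes, 81 are in that release. Copies were sought with blastn 2.17.0. Wilson intervals (95%) were corrected for form lengths.

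Library numbers are the place within a cell of the table and pair nothing. The members and the lists were chosen with earlier results of these data known. Named were the 15 called events with the largest difference, events and genes past the tests, the 12 deepest genes and partly included events, listed well-known genes, and partner genes. Alternatives were other thresholds, models, scalings and leaving out each library.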

Additional observations from a re-analysis of the deposited data

How the results depend on the processing

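The 20 called events became 5 at a minimum of 50 reads, 13 at a difference of at least 0.2 and 10 at an FDR under 0.01. Between 15 and 20 of them kept their sign and a difference of 0.1 or more when 1 library was left out. The other 4 alternatives changed the count by less than 1.5 times. Without library 2 of the second set the GNAS-AS1 difference turned to -0.0227, and with the others left out it reached 0.26. The quasi-binomial count of 0 became 2 with precision-weighted limma, and lay between 0 and 7 with 1 library left out. The 7 came without library 1 of the second set, where its library 2 stands alone and is assumed to vary like the others, and where 1278 of all tested events passed. The partly included share of 58.4% was 40.4% with bounds of 0.1 and 0.9, where that of all tested events was 15.1%, and between 56.0% and 59.2% with 1 library left out. The 8 genes with changed levels became 0 without library 1 of the first set and 4 without library 2, with a range of 0 to 11 over the libraries left out. Of the 8 themselves, 4, 3 and 4 still passed without library 2 of the first set, library 1 of the second and library 2 of the second. Under the sum over all events they were 12. Without the length correction, an alternative chosen after seeing the data, 3 of the 20 differences fell under 0.1 and none changed sign. The causes were not tested. No paired analysis was possible because the columns carry no replicate numbers. The called events had means of 20.75 to 66.25 reads, where the intervals of an inclusion level are wide.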
